A study of Tupaia belangeri with 6 samples.

Results

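The metabotropic glutamate receptors GRM2, GRM3, GRM4, GRM5, GRM7 and GRM8 were followed across the cell classes of the tree shrew (TS) hippocampus and between TSs with Alzheimer's-like pathology (ALP) and control TSs. The 6 members were chosen by gene symbol, with earlier results of these data known, and are 6 of the 83605 annotated features. Single-nucleus RNA sequencing was carried out on the hippocampus of 3 ALP TSs and 3 control TSs, 1 library per animal. Both groups were naturally aging animals with no transgene or drug. The ALP animals had been picked for poor maze performance, and the controls were age-matched and healthy, so group membership rests on behaviour. The sex of each animal is not labelled.

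Metabotropic glutamate receptors are G protein-coupled receptors that tune synapses more slowly than the glutamate-gated channels. Group I, here GRM5, couples to Gq and phospholipase C and is mainly postsynaptic in neurons, with a known presence in astrocytes. Group II, here GRM2 and GRM3, couples to Gi/o and lowers cyclic AMP. GRM3 is the member best known from glia, and responds to the peptide transmitter NAAG. Group III, here GRM4, GRM7 and GRM8, also couples to Gi/o and sits largely at presynaptic terminals, where it restrains transmitter release.

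Values are unique molecular identifiers (UMIs, each standing for 1 captured RNA molecule) summed per library and cell class. A level is given in CPM, the UMIs of a gene scaled to a fixed total of UMIs in the class. Transcript lengths were not used, so CPM is compared between classes for 1 gene and not between genes. Between 1614 and 7022 nuclei per library passed the filter of more than 200 and fewer than 2500 genes and under 5% mitochondrial UMIs, with 4159545 to 15412799 UMIs in all. The control 2 library was the smallest on both counts. Its share of barcodes at or above the limit on genes was 46.4%, against 16.0% to 27.7% in the others. Libraries shared at most 0.465% of their barcodes, and no pair agreed within sampling noise.

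Clusters were named only from marker genes, which gave 9 classes with at least 10 nuclei in every library. These were Pyra-like (pyramidal neurons), Gran-like (dentate granule neurons), InN-like (inhibitory neurons), Astro-like (astrocytes), OPC-like (oligodendrocyte progenitors), Oligo-like (oligodendrocytes), Micro-like (microglia), Ependymal-like and Mural- or fibroblast-like nuclei. Every marker of the class was detected in 6 of the 9 classes. GAD2 and SLC32A1 were at 0 in InN-like nuclei, MOBP was at 0 in Oligo-like nuclei and NRGN was at 0 in Pyra-like nuclei. Each of these markers was at 0 in all 9 classes, not only in its own. Further clusters stayed unnamed. Among them, 3 clusters with 3145 of the 28233 nuclei were left out by a depth limit of 0.56 of the library median, a value set after the clusters had been seen. At the lower limit tried as an alternative they would have been named Pyra-like, Gran-like and Astro-like. The first of them held 9.56% ± 8.35 of control nuclei and 3.04% ± 0.897 of ALP nuclei (SD, n = 3), with 1104 of its 1919 nuclei from control 3. The second held 5.27% ± 3.23 and 1.84% ± 0.508, and the third 1.64% ± 1.58 and 1.75% ± 0.341.

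The study lists GRM5 among the lower genes of the glutamatergic synapse pathway in its own single-nucleus comparison, which was fitted over nuclei. Here counts were summed per library, and the main test given below did not call GRM5 in any class. The study then measured GRM5 by RT-qPCR with a designed primer pair, and reports lower GRM5 mRNA in hippocampal tissue of ALP TSs. Tissue RNA and the nuclear counts used here are unlike measures. The pair is shown because it defines the only sequence of a member given with the study, 20 bases each, 5′ to 3′:
GRM5 forward primer: gtgtttcacccccaaaggga
GRM5 reverse primer: gctcttggggaacggtttga

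The members were captured very unequally. GRM2 had 4 UMIs in all barcodes and 0 among the 62553881 UMIs of the kept nuclei, which allows up to 0.0480 CPM from counting error alone. GRM4 had 434 UMIs in kept nuclei, GRM8 6490, GRM3 32407, GRM5 38137 and GRM7 54095. GRM2 was therefore not detected in the kept nuclei, and no statement on its direction can be made. The reason was not tested.

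The limit on genes per nucleus removed most of the neuronal members' UMIs. The kept share of GRM5 UMIs was 39.1%, 16.4% and 23.1% in the controls and 38.5%, 30.1% and 45.7% in the ALP libraries. For GRM7 the kept share was 38.6%, 11.3% and 15.7% in the controls and 34.3%, 28.5% and 40.4% in the ALP libraries. GRM3 lost least, with 43.5% to 83.1% kept. Control 2 had the lowest kept share for GRM3, GRM5, GRM7 and GRM8, so every neuronal value of that library rests on its shallower nuclei.

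**Figure D1:**
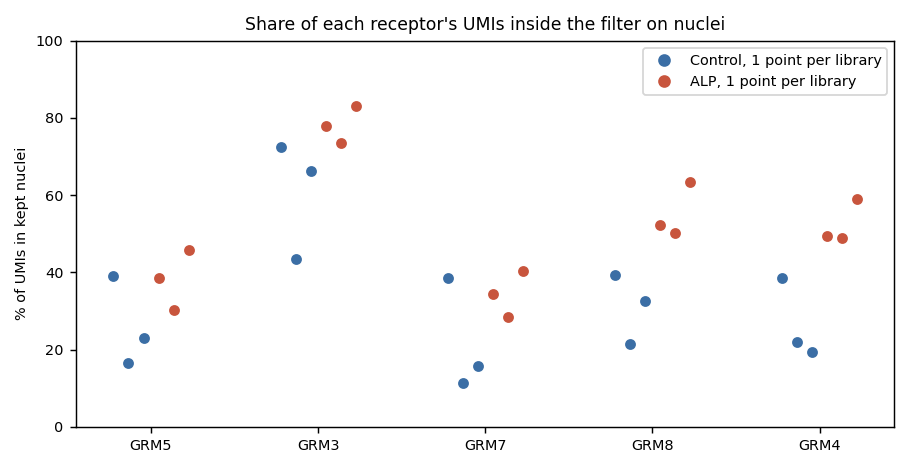
Percentage of each receptor's UMIs that lie in nuclei passing the filter (y axis) for 5 receptors (x axis), 1 point per library, blue for control and red for ALP. GRM3 sits highest, at 43.5% to 83.1%, and GRM7 falls to 11.3% in control 2.

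GRM5, the group I receptor, was present in every neuronal class and in macroglia other than oligodendrocytes. Its level was 1093 ± 181 CPM in Gran-like, 848 ± 115 in Pyra-like, 782 ± 148 in Astro-like, 646 ± 117 in OPC-like and 606 ± 46.1 in InN-like nuclei (SD, n = 6 libraries). Lower levels were found in Micro-like nuclei, at 276 ± 44.0 CPM, and Oligo-like nuclei, at 69.0 ± 24.7 CPM. Mural- or fibroblast-like and Ependymal-like nuclei had 176 ± 145 and 126 ± 79.4 CPM, each on 39 UMIs. The Gran-like level was above the Pyra-like level in 6 of 6 libraries, by 0.36 ± 0.20 on the log2 scale. Pyra-like and Astro-like levels, in contrast, held their order in 4 of 6 libraries only, and OPC-like and InN-like levels in 3 of 6.

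GRM3, the glial group II receptor, was led by Oligo-like nuclei at 1303 ± 442 CPM and Astro-like nuclei at 951 ± 234 CPM. These neighbours held their order in 4 of 6 libraries and did not differ beyond their spread. Next came Micro-like nuclei at 311 ± 64.99 CPM and Gran-like nuclei at 277 ± 103 CPM. The small Mural- or fibroblast-like and Ependymal-like classes had 172 ± 146 and 83.2 ± 69.6 CPM, on 31 and 33 UMIs. Pyra-like nuclei had 143 ± 61.4 CPM, OPC-like nuclei 62.4 ± 27.4 CPM and InN-like nuclei 35.3 ± 11.1 CPM. Astro-like nuclei exceeded Micro-like nuclei in 6 of 6 libraries, by 1.60 ± 0.46 on the log2 scale. Oligo-like nuclei held 50.9% ± 12.6 of all GRM3 UMIs.

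GRM7, a group III receptor of presynaptic active zones, was nearly equal in Pyra-like nuclei, at 1876 ± 266 CPM, and Gran-like nuclei, at 1876 ± 238 CPM. OPC-like nuclei had 741 ± 99.1 CPM and InN-like nuclei 527 ± 117 CPM. The Pyra-like level exceeded the OPC-like level in 6 of 6 libraries, by 1.33 ± 0.19 on the log2 scale, and the OPC-like level exceeded the InN-like level in 6 of 6, by 0.51 ± 0.23. Micro-like nuclei had 515 ± 192 CPM, Oligo-like nuclei 135 ± 32.5 CPM, and the Mural- or fibroblast-like and Ependymal-like classes 109 ± 75.4 and 104 ± 66.0 CPM. GRM7 was lowest in Astro-like nuclei, at 44.8 ± 12.9 CPM, where GRM5 and GRM3 were both high.

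GRM8 and GRM4, the scarcer group III receptors, were largely neuronal. GRM8 had 247 ± 123 CPM in Pyra-like and 199 ± 69.2 CPM in InN-like nuclei, in the same order in 3 of 6 libraries, and 11.6 ± 6.25 CPM in Gran-like nuclei. OPC-like nuclei had 67.4 ± 19.0 CPM, Oligo-like nuclei 42.1 ± 16.4 CPM, Micro-like nuclei 22.6 ± 7.13 CPM and Astro-like nuclei 8.54 ± 2.63 CPM. GRM8 in InN-like nuclei exceeded OPC-like nuclei in 6 of 6 libraries, by 1.54 ± 0.65 on the log2 scale. GRM4 had 19.6 ± 12.2 CPM in Pyra-like and 10.6 ± 3.16 CPM in InN-like nuclei, which together held 277 and 106 of its 434 UMIs.

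Of the 48 pairs of neighbouring classes over the 6 members, 10 had the same order in all 6 libraries. The 8 pairs of GRM2 were 0 against 0. By the two-sided exact sign-flip permutation test over libraries, the smallest p that 6 libraries can give is 0.03125, and after Benjamini-Hochberg adjustment over the 48 pairs the smallest value was 0.15. No neighbour pair passed the adjusted threshold of 0.05. Passing would have needed many more pairs at the smallest possible p, so the result does not show that neighbouring classes are alike. The neighbours were also ordered by the same levels that were compared.

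**Figure D2:**
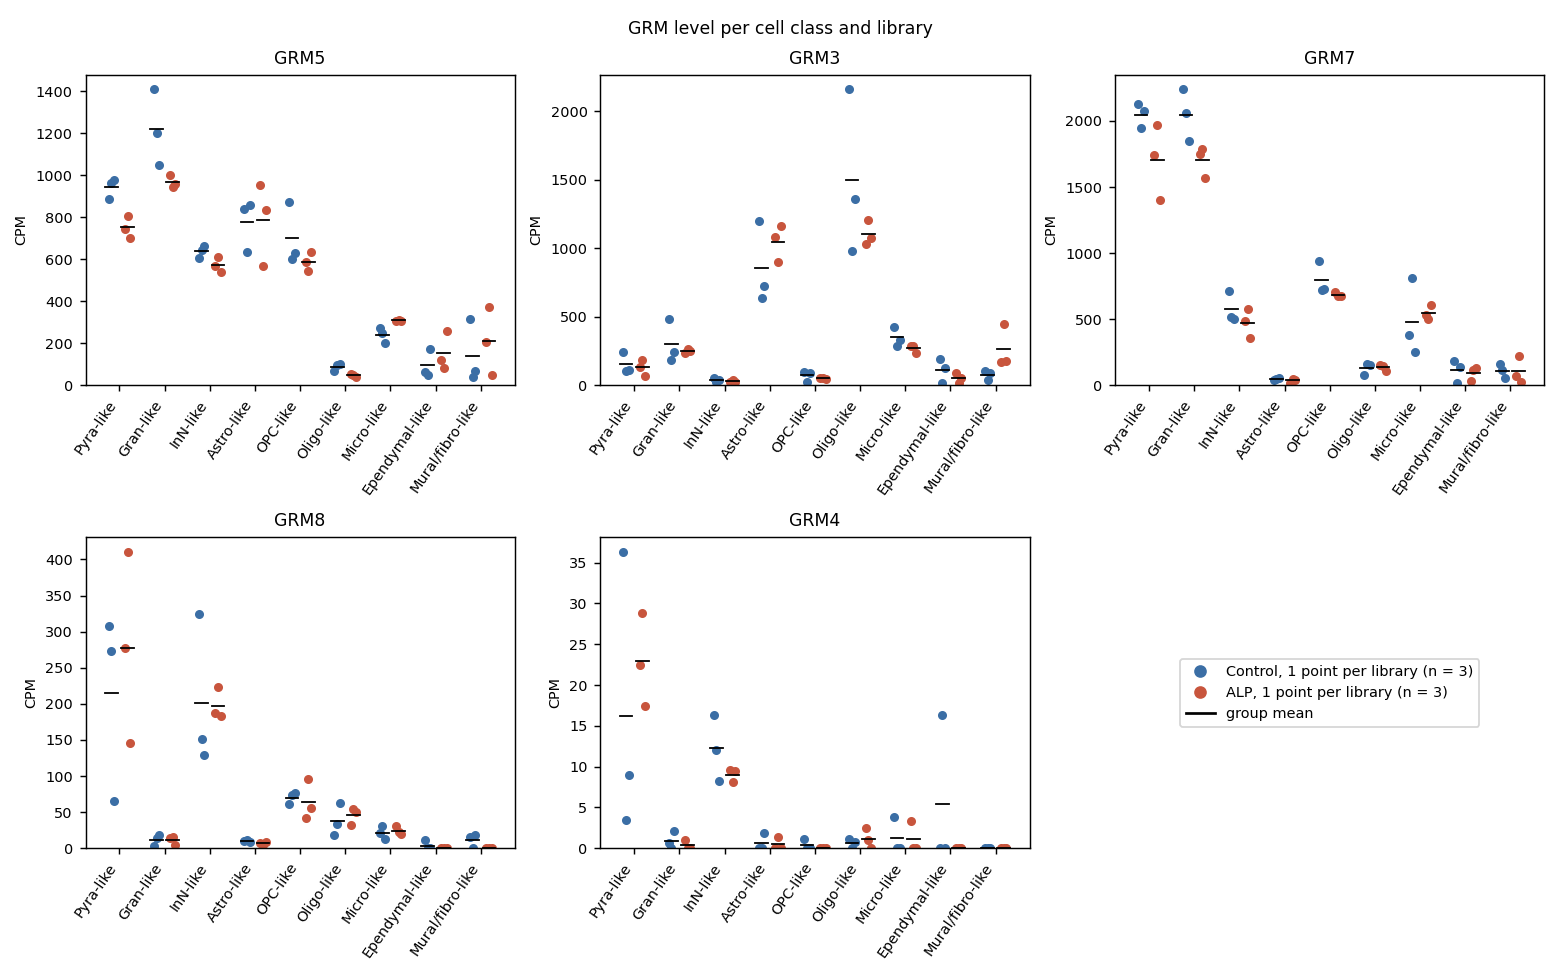
Level in CPM (linear y axes from 0, scaled per receptor) of 5 receptors in 9 cell classes, 1 point per library and a bar at each group mean. GRM5 and GRM7 are high in Pyra-like and Gran-like nuclei, GRM3 in Oligo-like and Astro-like nuclei, and GRM8 in Pyra-like nuclei spreads from 65.8 to 410.2 CPM.

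To ask whether the share of nuclei with a UMI followed the same order at equal depth, nuclei with at least 1000 UMIs were thinned to 1000 and shallower nuclei were left out. This left out 30.1% of control and 52.1% of ALP Micro-like nuclei and 12.9% and 22.1% of Oligo-like nuclei, so these shares describe the deeper nuclei of both classes, unequally by group. GRM7 was then found in 80.1% ± 3.07 of Gran-like nuclei, 74.5% ± 6.0 of Pyra-like nuclei and 3.78% ± 0.910 of Astro-like nuclei (SD, n = 6). GRM5 was found in 61.7% ± 4.95 of Gran-like and 5.69% ± 1.69 of Oligo-like nuclei. GRM3 was found in 66.2% ± 8.93 of Oligo-like, 51.6% ± 8.25 of Astro-like and 3.26% ± 1.05 of InN-like nuclei. The shares of the leading classes thus lay far above those of the lowest classes at the same depth.

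Within the classes, the clusters differed in their receptors. In the Pyra-like class, the cluster led by COL8A1 had 924 ± 121 CPM of GRM8 over the 5 libraries with at least 10 of its nuclei, and the largest Pyra-like cluster had 44.3 ± 32.1 CPM over 6 libraries. That COL8A1 cluster also had the highest GRM3 of the Pyra-like clusters, at 512 ± 117 CPM. It made up 20.7%, 6.33% and 0.840% of Pyra-like nuclei in the controls and 24.6%, 21.9% and 12.5% in the ALP libraries. Control 3, with 2 such nuclei, had the lowest GRM8 level of the class. Members were left out of the clustering genes, but these cluster differences are a description and were not tested.

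Among the InN-like clusters, GRM8 and GRM7 were highest in the cluster with CALCR, VIP and CALB2 among its leading genes, at 531 ± 163 CPM and 1073 ± 217 CPM over 6 libraries. The SST cluster, whose leading gene encodes the peptide somatostatin, had 173 ± 30.8 CPM of GRM8 and 769 ± 122 CPM of GRM7. The cluster led by a LAMP5 antisense feature had only 75.4 ± 56.7 CPM of GRM7, yet 773 ± 143 CPM of GRM5, close to the 773 ± 158 CPM of the SST cluster. The cluster led by CNR1, the cannabinoid receptor, had the lowest GRM5 of these clusters, at 326 ± 74.6 CPM.

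In the Micro-like class, GRM5 and GRM7 levels were higher in the small cluster led by GPNMB. It held 712 ± 186 CPM of GRM5 and 1379 ± 203 CPM of GRM7 over 5 libraries, against 127 ± 22.7 and 112 ± 38.7 CPM over 6 libraries in the cluster led by PTPRC. The 8 granule neuron markers summed to 1106 to 1776 CPM in the GPNMB cluster and to 290 to 546 CPM in the PTPRC cluster. The 7 microglial markers summed to 965 to 1427 CPM in the GPNMB cluster, below the granule sum in every library. In the PTPRC cluster they summed to 2853 to 4987 CPM. Median depth was 3669 UMIs in the GPNMB cluster, with 10.5% marked doublets, against 1038 UMIs and 4.33%. With no upper limit on genes, the cluster with GPNMB among its leading genes had 17.3% marked doublets and stayed unnamed. The part of neuronal RNA in these Micro-like values was not tested.

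**Figure D3:**
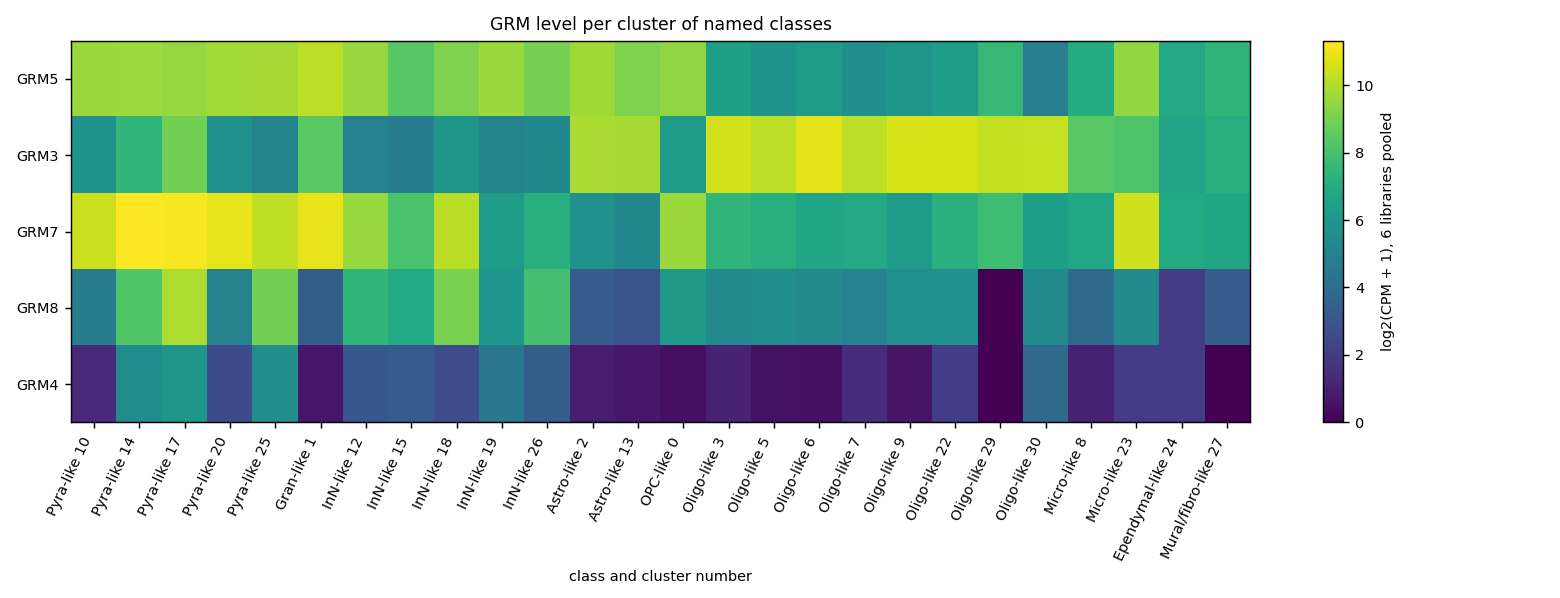
Level of 5 receptors (rows) in the clusters of the named classes (columns, class and cluster number), as log2(CPM + 1) of the 6 libraries pooled. GRM8 is brightest in the Pyra-like cluster 17, led by COL8A1, and the Micro-like cluster 23, led by GPNMB, stands apart from cluster 8 in GRM5 and GRM7.

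The features whose pattern over the 54 class and library sums was most like each member are given as a description, since sums of 1 library share its depth. For GRM5 these were PLCB1, LRP1B and CACNB2, with Pearson r of 0.896, 0.868 and 0.850. PLCB1 encodes a phospholipase C that acts downstream of Gq. For GRM7 they were ARPP21, STXBP5 and PPFIA2, with r of 0.901, 0.880 and 0.879. GRM3 was most like EFHD1, MINK1 and CTNNA3, with r of 0.796, 0.782 and 0.774, and GRM8 most like FNDC4, ST6GAL2 and STMN2, with r of 0.826, 0.802 and 0.799.

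For ALP against control, levels were scaled by TMM factors, which align the bulk of the genes between libraries, and tested by edgeR's quasi-likelihood test on the summed counts. A gene was called at a Benjamini-Hochberg adjusted p under 0.05 and a log2 fold change beyond 0.25. Of the 54 combinations of member and class, 28 passed the filter on low counts. None of the 28 was called by edgeR, against a background of 1.27% over every gene and class. At an unadjusted p under 0.05 there was 1, with a background of 17.7%. Every ALP library lay above every control for 1 and below for 4, where the background was 10.8% in each direction. DESeq2, run as a second tool, also called none of them. In bulk sums, fewer cells of a type and less RNA per cell cannot be told apart.

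GRM5 in Oligo-like nuclei came nearest to a call. The controls had 68.7, 97.7 and 99.2 TMM-scaled CPM and the ALP libraries 59.5, 51.4 and 44.4. The control 2 value rests on 186 nuclei, against 1287 to 2393 in the other libraries. All ALP values lay below all control values. The log2 fold change was -0.75 ± 0.21 (SE; 95% interval -1.21 to -0.28), with an edgeR adjusted p of 0.067. In Oligo-like nuclei 4.81% of genes were called and 10.9% had every ALP library below every control. With library totals alone in place of TMM factors the fold change was -0.86 and was called, with an edgeR adjusted p of 0.045. The clusters led by RNASE1 and TNFAIP6 held 9.15%, 36.6% and 14.5% of the Oligo-like nuclei in the controls and 67.8%, 47.4% and 70.8% in the ALP libraries. Their pooled GRM5 levels were 55.8 and 48.6 CPM, against 63.1 to 85.3 CPM in the other large Oligo-like clusters. Without these clusters, an alternative chosen after seeing the data, the fold change was -0.57, with an edgeR adjusted p of 0.37. The 7 OPC markers, of a class rich in GRM5, summed to 1515, 1100 and 1043 CPM in the control and 1013.5, 1041 and 882 CPM in the ALP Oligo-like sums, without overlap. Inhibitory neuron markers had 95.02 to 126 and 79.8 to 96.1 CPM, and granule neuron markers 285 to 380 and 348 to 354 CPM. Ependymal markers, at 58.7 to 78.1 and 37.8 to 44.4 CPM, and neural progenitor markers, at 26.8 to 30.5 and 10.5 to 17.7 CPM, did not overlap either. Their part in the result was not tested.

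GRM5 in Micro-like nuclei lay the other way. The controls had 288, 291 and 229 TMM-scaled CPM and the ALP libraries 359, 340 and 358. All ALP values lay above all control values, as they did for 9.21% of the genes tested in this class, of which 0.525% were called. The control 2 value rests on 44 nuclei, against 208 to 535 in the other libraries. The log2 fold change was 0.40 ± 0.21 (SE; 95% interval -0.04 to 0.84), with an edgeR adjusted p of 0.40. The granule neuron markers, at 420 to 716 CPM in the controls and 831 to 917 CPM in the ALP sums, were also higher without overlap. Oligodendrocyte markers, at 1537 to 1694 and 1284 to 1447 CPM, went the other way without overlap. So did neural progenitor markers, at 49.2 to 72.7 and 45.6 to 46.9 CPM. Pyramidal neuron markers, at 362 to 532 and 478 to 573 CPM, and inhibitory neuron markers, at 153 to 218 and 211 to 268 CPM, overlapped. Their part in the result was not tested. The GPNMB cluster made up 6.92%, 20.5% and 4.45% of control and 16.8%, 13.3% and 18.6% of ALP Micro-like nuclei. Without that cluster, an alternative chosen after seeing the data, the fold change was -0.03.

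In neurons GRM5 did not pass the test. In Gran-like nuclei the controls had 1441, 1212 and 1083 TMM-scaled CPM and the ALP libraries 1084, 963 and 1056, which overlap only at ALP 1 and control 3. The log2 fold change was -0.27 ± 0.15 (SE; 95% interval -0.60 to 0.06), with an edgeR adjusted p of 0.39, in a class where 1.71% of genes were called. That background fell from 175 called genes to 0 with the lower depth limit, and in Astro-like nuclei from 22 to 2. In InN-like nuclei the 6 values lay between 574 and 655, with a log2 fold change of -0.003 (95% interval -0.26 to 0.26).

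The neuronal fold changes depended on the scaling. In Pyra-like nuclei the TMM-scaled GRM5 fold change was -0.10 ± 0.16 (SE), whereas with library totals alone it was -0.34 ± 0.19. The median of all genes tested moved by -0.25 in Pyra-like, -0.17 in InN-like and -0.16 in Astro-like nuclei between these scalings. A change of scaling multiplies every gene of a library by 1 factor. GRM5 therefore had to move by about as much as the median, and its shift says nothing about GRM5 itself. Neither value passed, with edgeR adjusted p of 0.80 and 0.34.

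GRM3 was not called in either of its leading classes. In Oligo-like nuclei the controls had 2127, 1005 and 1325 TMM-scaled CPM and the ALP libraries 1107, 1235 and 1153. Control 1 stood above all others. The log2 fold change was -0.36 ± 0.26 (SE), with an edgeR adjusted p of 0.46, and without control 1 it was 0.01. In Astro-like nuclei the controls had 1127, 659.5 and 738 TMM-scaled CPM and the ALP libraries 1208, 925 and 1319. The groups overlapped, with a log2 fold change of 0.45 ± 0.21 (SE; 95% interval -0.02 to 0.91) and an edgeR adjusted p of 0.31, where 0.217% of genes were called. Astrocyte markers were higher in ALP without overlap in these sums, at 4287 to 5070 and 5200 to 5573 CPM. So were ependymal markers, at 314 to 381 and 395 to 632 CPM. Granule neuron markers, at 98.6 to 131 and 55.6 to 88.5 CPM, were lower without overlap. So were inhibitory neuron markers, at 112 to 137 and 66.5 to 104, and endothelial markers, at 36.0 to 53.6 and 16.6 to 31.4 CPM. The other lists overlapped. The part of these markers in any Astro-like value was not tested.

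GRM3 in Micro-like nuclei was 446, 339 and 380 TMM-scaled CPM in the controls and 336, 314 and 272 in the ALP libraries. The control 2 value rests on 44 nuclei. Every ALP value was lower, as for 7.99% of the genes of the class, with a log2 fold change of -0.37 ± 0.21 (SE; edgeR adjusted p = 0.44). Oligodendrocyte markers, of a class rich in GRM3, were lower without overlap in these sums. They had 1694, 1537 and 1651 CPM in the controls and 1284, 1393 and 1447 CPM in the ALP libraries. Granule neuron markers went the other way, at 420 to 716 and 831 to 917 CPM. Their part in the result was not tested.

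Group III members showed no call in any class. GRM7 in Gran-like nuclei was 2287, 2083 and 1906 TMM-scaled CPM in the controls and 1893, 1825 and 1733 in the ALP libraries. Every ALP value lay below every control value, as for 11.0% of the genes of the class, and the log2 fold change was -0.20 ± 0.14 (SE; edgeR adjusted p = 0.49). In the Gran-like sums the oligodendrocyte markers, of a class low in GRM7 and GRM5, were 488, 199.8 and 560.4 CPM in the controls and 589, 828 and 608 CPM in the ALP libraries, without overlap. The granule neuron markers, at 1738 to 1829 and 2007 to 2392 CPM, and the ependymal markers, at 147 to 160 and 103 to 120 CPM, did not overlap either. Their part in these values was not tested. GRM7 in OPC-like nuclei was 947, 784 and 778 in the controls and 762, 717 and 734 in the ALP libraries. These did not overlap either, as for 9.33% of the genes lower in ALP in that class, and the log2 fold change was -0.18 ± 0.13 (SE; edgeR adjusted p = 0.56). GRM8 in Pyra-like nuclei was 285, 261 and 62.8 in the controls and 306, 423 and 176 in the ALP libraries. These overlapped, with a log2 fold change of 0.56 ± 0.49 (SE; edgeR adjusted p = 0.60), and 0.22 without the COL8A1 cluster, an alternative chosen after seeing the data. GRM4 could be tested in InN-like and Pyra-like nuclei, with log2 fold changes of -0.27 ± 0.35 and 0.49 ± 0.54 (SE).

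**Figure D4:**
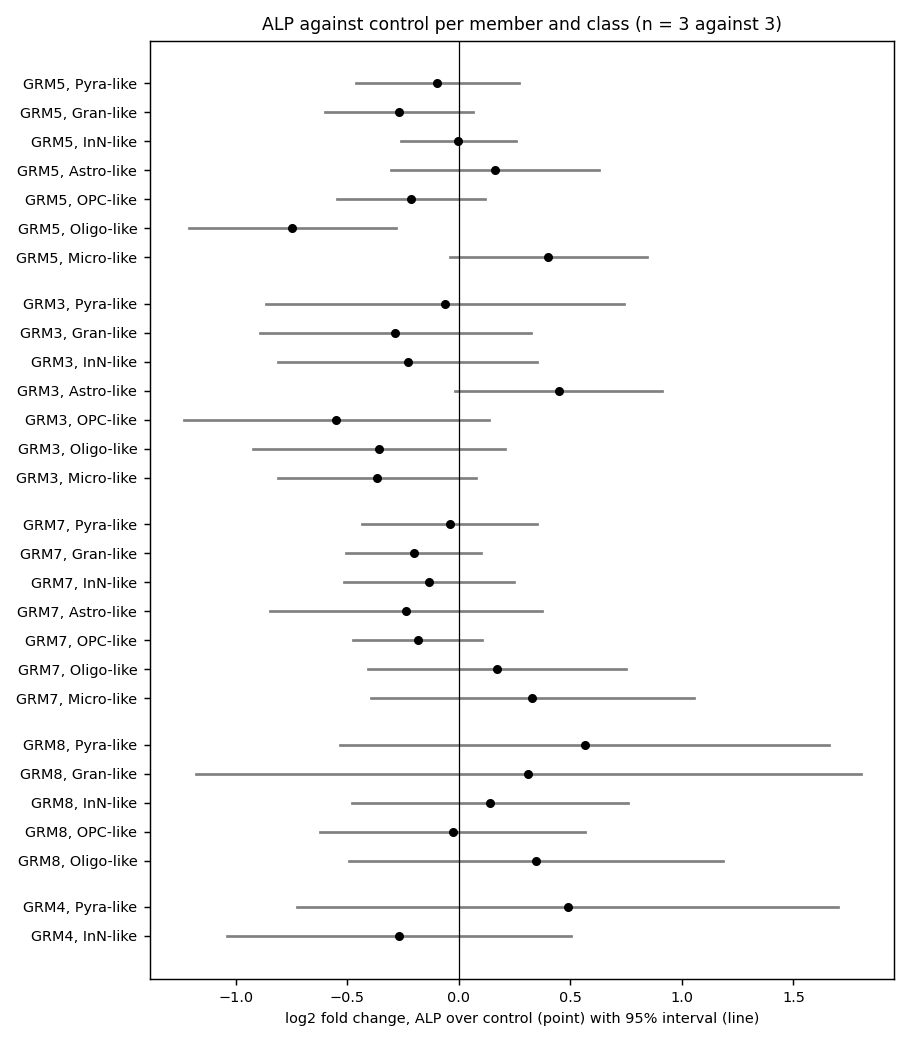
Log2 fold change of ALP over control (x axis; point, with the 95% interval as a line) for the 28 tested combinations of receptor and class (y axis), n = 3 against 3 libraries. The interval of GRM5 in Oligo-like nuclei, -1.21 to -0.28, leaves out 0, and its adjusted p was 0.067.

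With all nuclei of a library summed, which also moves with the make-up of the nuclei, no member was called and none of the 22749 genes was, a background of 0.0% by edgeR, with 5323 genes, 23.4%, at an unadjusted p under 0.05. DESeq2 called 1740 genes. GRM8 was 80.2, 99.3 and 52.6 TMM-scaled CPM in the controls and 153, 163 and 93.9 in the ALP libraries, with a log2 fold change of 0.83 ± 0.27 (SE; edgeR adjusted p = 0.12). GRM4 was 6.90, 4.65 and 2.54 in the controls and 11.2, 9.15 and 7.07 in the ALP libraries. Every ALP value was higher, as for 12.8% of genes, and the log2 fold change was 0.95 ± 0.38 (SE; edgeR adjusted p = 0.18). GRM5 had 0.05 ± 0.15. Pyra-like nuclei, the class with the highest mean GRM8 and GRM4, were 7.42%, 9.79% and 4.14% of kept nuclei in the controls. They were 16.2%, 13.2% and 11.6% in the ALP libraries, without overlap. OPC-like and unnamed nuclei had lower shares in ALP, also without overlap. These Pyra-like shares leave out the shallow cluster that the lower depth limit would name Pyra-like. With that limit the Pyra-like shares overlapped between the groups, and control 3 had the highest, with 1342 of 5751 nuclei. ALP 1 then had 781 of 3927. The shares also overlapped with no upper limit on genes, with 621 of 3011 nuclei in control 2 and 1357 of 7145 in ALP 2. The part of the make-up in the summed values was not tested.

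Whether the ALP effect differed between classes was tested by the class by group interaction in 1 edgeR fit of 16988 genes, of which 0.883% were called. The adjusted p was 0.28 for GRM3, 0.54 for GRM5, 0.88 for GRM7, 0.95 for GRM8 and 0.91 for GRM4.

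Shares of nuclei with a UMI, thinned to 1000 UMIs, could not go below p = 0.1 in the two-sided exact permutation test of 3 against 3. Among 32 combinations with a mean share of at least 1% and 10 nuclei in each library, 4 did not overlap between groups. GRM5 was lower in ALP in Gran-like nuclei, at 58.3% ± 1.14 against 65.04% ± 5.07, and in Oligo-like nuclei, at 4.41% ± 0.672 against 6.97% ± 1.32 (SD, n = 3). The thinned Micro-like values of GRM5 and GRM3 were 23.3% ± 5.10 in ALP against 14.9% ± 1.77 in control and 23.1% ± 2.59 against 18.0% ± 0.993. Over all features with such shares, 20.6% did not overlap in Gran-like, 22.3% in Oligo-like and 16.6% in Micro-like nuclei, and 19.2% over all 8 classes with enough nuclei together. The GRM5 shares in Gran-like and Oligo-like nuclei did not overlap at 500 UMIs either. GRM5 was also lower in ALP without overlap at 500 UMIs in Pyra-like nuclei, at 30.4% ± 2.26 against 34.6% ± 1.88. The same held in InN-like nuclei, at 24.2% ± 1.04 against 26.04% ± 0.581. In both classes the GRM5 shares at 1000 UMIs and the TMM-scaled levels overlapped. In Astro-like and OPC-like nuclei GRM5 overlapped at 500 UMIs, while GRM7 was lower in ALP without overlap. The share of all features without overlap at 500 UMIs is not given here. No result about the members is therefore read from the shares at that depth. The Micro-like shares did not hold at 500 UMIs, where every Micro-like nucleus entered. In Micro-like nuclei GRM5 then overlapped between the groups. GRM3 turned there, with 8.79%, 9.33% and 8.67% in the controls and 6.47%, 7.77% and 5.92% in the ALP libraries. No order is therefore read from the Micro-like shares.

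The annotation also holds 22 features named after members, antisense or copy features, of which 11 had at least 100 UMIs. The use of strand in counting is not stated, so how far reads of a receptor and its antisense partner were kept apart is not known here. None was called by edgeR in any class. GRM7-AS-2, the most abundant with 4647 UMIs, had 118, 164 and 138 TMM-scaled CPM in control and 261, 196 and 197 in ALP Pyra-like nuclei, with a log2 fold change of 0.65 ± 0.20 (SE; edgeR adjusted p = 0.16). GRM7-AS-1 in Gran-like nuclei had a log2 fold change of -1.06 ± 0.27 (SE; edgeR adjusted p = 0.071).

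The partners of the receptors were read from a list of 53 signalling genes, of which 51 are annotated. Its only call by edgeR was CACNA1A in OPC-like nuclei, where 1.62% of genes were called. This gene encodes the pore of P/Q-type calcium channels, a target of Gi/o signalling at terminals. It had 422, 290 and 345 TMM-scaled CPM in the controls and 196, 233 and 192 in the ALP libraries, and fell by 0.78 ± 0.17 on the log2 scale (SE; edgeR adjusted p = 0.043). The ALP values lay below the control values throughout. The lower depth limit left the OPC-like nuclei unchanged and so only repeated the main fit. With that limit counted, the call held in 7 of 15 alternatives, with log2 fold changes of -0.87 to -0.75. It was lost in the other 8, with -0.87 to -0.62 and edgeR adjusted p of 0.058 to 0.29. These were every fit without 1 library except that without control 2, the fit with replicate numbers as a block, no upper limit on genes, and marked doublets removed. Some alternatives also called CACNA1A lower in classes where the main fit did not. In Astro-like nuclei the log2 fold change was -1.50 with DESeq2, -1.49 without the filter, -1.78 without control 2 and -1.67 with library totals alone. In Gran-like nuclei it was -0.68 without control 2 and -0.70 with library totals alone. Several marker lists did not overlap in the Astro-like and Gran-like sums, as given above, and their part in these values was not tested. In the OPC-like sums the pyramidal neuron markers were 742, 730.0 and 790.0 CPM in the controls and 574, 627 and 619 CPM in the ALP libraries, without overlap. Granule neuron markers, at 624 to 761 and 793 to 881 CPM, and ependymal markers, at 119 to 141 and 94.0 to 102 CPM, did not overlap either. Their part in the result was not tested.

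The list's median log2 fold change was -0.05 over 37 genes tested in Gran-like, 0.07 over 40 in InN-like, 0.07 over 39 in Pyra-like, -0.12 over 31 in OPC-like, -0.13 over 33 in Oligo-like, -0.12 over 35 in Astro-like and 0.22 over 27 in Micro-like nuclei. The medians over all genes lay between -0.012 and 0.0099 in these 7 classes. Ependymal-like and Mural- or fibroblast-like nuclei had 6 and 4 genes tested, with medians of -0.16 and -0.24, and all nuclei had 45, with 0.23. The genes that follow were named without regard to their values, from a list chosen with earlier results of these data known. The classes given for them were chosen after their values were seen. None of them was called in any class by the main fit. HOMER1, the scaffold that ties GRM5 to its effectors, had log2 fold changes of -0.60 ± 0.25 in Gran-like and -0.62 ± 0.22 in Oligo-like nuclei (SE; edgeR adjusted p = 0.25 and 0.13). FOLH1, which breaks down the GRM3 agonist NAAG, had -0.81 ± 0.23 in Astro-like nuclei (SE; edgeR adjusted p = 0.10). FOLH1 was called lower there in some alternatives. These were the fits without the filter on low counts (-0.79, edgeR adjusted p = 0.027) and without ALP 2 (-1.13, edgeR adjusted p = 0.026). ELFN1, a synaptic adhesion protein that binds group III receptors, had 0.50 ± 0.19 in InN-like nuclei (SE; edgeR adjusted p = 0.19). The astrocytic glutamate transporters SLC1A3 and SLC1A2 had 0.49 ± 0.13 and 0.16 ± 0.17 in Astro-like nuclei (SE; edgeR adjusted p = 0.094 and 0.68). Both belong to the astrocyte markers, whose sum was higher in ALP without overlap in these nuclei.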

How the data were processed

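The authors deposited raw counts, UMIs per gene and barcode of 10x Genomics 3′ libraries, as matrices. The labels and methods name Cell Ranger 3.1.0 and the file headers 6.1.2. The methods name TreeshrewDB as the source of the reference genome, without a build. The build and the use of strand are not given in the sources used here. Nuclei passing the study's limits were clustered with scanpy 1.11.5 and leidenalg 0.10.2 (2000 variable genes without GRM-named features, 30 components, 20 neighbours, resolution 2), and clusters were named from marker lists (at least 3 markers at a share of 3% and a fold of 1.5). Clusters with 15% or more marked doublets (scanpy's Scrublet scores, the top 0.8% per 1000 barcodes) stayed unnamed, as did clusters under 0.56 of the library's median depth with no own marker among 10 leading genes. That depth limit was set after the clusters were seen, and a lower limit was tried as an alternative.

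Summed counts were tested with edgeR 4.0.16 (TMM, minimum count 10) in R 4.3.3, with DESeq2 1.42.0 as an alternative, and single values with scipy 1.17.1. The members, marker lists and signalling list were chosen with earlier results of these data known. Named are all members, features named after them with 100 or more UMIs, called genes of the signalling list with HOMER1, FOLH1, ELFN1, SLC1A2 and SLC1A3, and the 3 most correlated features above 10 CPM. On simulated data the edgeR step recovered 28.0% of changes of 1 on the log2 scale and 95.5% of changes of 2 in 11385 Oligo-like genes, and 16.7% and 75.9% in 12492 Pyra-like genes, with 9.76% and 9.30% of calls false. The upper limit given for GRM2 covers counting error only. The 95% intervals of fold changes come from the same edgeR fits as the p-values. Both include the spread between 3 animals a group. Permutation p-values rest on the spread between libraries.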

Additional observations from a re-analysis of the deposited data

Results flagged for a closer look

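For GRM5, every ALP library lay above every control in Micro-like nuclei, with a log2 fold change of 0.40, and below every control in Oligo-like nuclei, at -0.75. Neither passed the test, with edgeR adjusted p of 0.40 and 0.067. The difference of these fold changes was 1.15. In the joint edgeR fit of all classes the same contrast was 1.16, with an edgeR adjusted p of 0.19 over 16988 genes, so the difference did not pass. Without the Micro-like cluster led by GPNMB, an alternative chosen after seeing the data, the Micro-like value was -0.03. Control 2 had 44 Micro-like and 186 Oligo-like nuclei.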

How the results depend on the processing

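Of 507 recomputed fold changes of members, 453 kept their direction and their side of the threshold, 47 turned direction and 7 passed the threshold. Some refits used unchanged sums and had to return the main value. These were InN-like, Micro-like, OPC-like, Oligo-like and all nuclei with the lower depth limit, and all nuclei at resolution 1. Member and class calls stayed at 0 except for 1 with library totals alone (GRM5 in Oligo-like nuclei) and 0 to 2 with 1 library left out. Those were GRM5 in Oligo-like (-0.92, edgeR adjusted p = 0.049) and GRM8 in InN-like nuclei (0.65, edgeR adjusted p = 0.046) without control 1, and GRM7 in Micro-like (0.87, edgeR adjusted p = 0.034) and GRM3 in OPC-like nuclei (-0.80, edgeR adjusted p = 0.045) without control 2. With all nuclei summed, 1 member was called without the filter on low counts and 0 to 1 with 1 library left out, in both cases GRM8 (0.86 and, without control 2, 1.06). For these calls with 1 library left out, the share of genes called in the same fit is not given here. No result about the members is read from them. The interaction called 0 to 1 members with 1 library left out, the call being GRM8 without control 1. That fit called 593 of 17845 genes, against 150 of 16988 in the main fit. The signalling list had 1 call, 2 with DESeq2, 6 without the filter, 0 with the replicate block, 0 with no upper limit on genes, 0 with marked doublets removed, 3 with library totals alone and 0 to 6 with 1 library left out. Neighbour pairs with the same order in every library numbered 10 of 48, 15 with no upper limit on genes, 11 of 37 with marked doublets removed and 10 to 12 with 1 library left out, where the smallest possible p is 0.0625. Share combinations without overlap numbered 4, 7 at 500 UMIs and 4 to 11 with 1 library left out. For these alternatives no share over all features is given here. The cause of all the changes above was not tested.

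The labels give no pairing of samples by replicate number. Deviations of same-numbered libraries correlated at -0.118, -0.0523 and -0.0940, which cannot show whether these libraries were processed together. The fit with the replicate block called 0 member and class combinations and 0 members over all nuclei, and took the genes called in Oligo-like nuclei from 566 to 258 and in Gran-like nuclei from 175 to 0. Calls over all genes moved widely. In Oligo-like nuclei they were 566, 1378 without the filter, 143 without the clusters led by RNASE1 and TNFAIP6, and 1 to 1083 with 1 library left out (1, 1 and 2 without control 3, ALP 1 and ALP 3). In Gran-like nuclei they were 175, 725 without the filter, 576 with no upper limit on genes, 0 with the lower depth limit and 0 to 527 with 1 library left out. In OPC-like nuclei they were 142, 547 without the filter, 85 with marked doublets removed, 1 with the block and 0 to 422 with 1 library left out. Micro-like nuclei had 34, 226 without the filter, 58 with library totals alone, 5 with marked doublets removed, 0 with the block and 0 to 308 with 1 library left out. Astro-like nuclei had 22, 221 with DESeq2, 733 without the filter, 152 with library totals alone, 13 with no upper limit on genes or with marked doublets removed, 6 with the block, 2 with the lower depth limit and 2 to 227 with 1 library left out. InN-like nuclei had 0, 467 with DESeq2, 182 with upper-quartile scaling, 1438 without the filter, 524 with no upper limit, 96 with marked doublets removed, 457 with library totals alone and 0 to 501 with 1 library left out. Pyra-like nuclei had 0, 314 with DESeq2, 955 without the filter and 0 to 195 with 1 library left out, and all nuclei 0, 1740, 3386 and 0 to 2245, with 702 by library totals alone.

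Fold changes that turned direction were as follows. Without the filter on low counts, GRM5 in InN-like nuclei was 0.0665, GRM8 in OPC-like 0.0059, and GRM5, GRM7 and GRM3 in Pyra-like 0.0634, 0.11 and 0.0607. With no upper limit on genes, GRM8 in Gran-like was -0.19, GRM4 in InN-like 0.0105, GRM7 in Micro-like -0.71, and GRM5, GRM7 and GRM3 in Pyra-like 0.0244, 0.0119 and 0.35. With the lower depth limit, chosen after seeing the data, GRM7 and GRM8 in Gran-like were 0.0019 and -0.14 and GRM7 in Pyra-like 0.15. With library totals alone, also chosen after seeing the data, GRM5 was -0.16 in all nuclei and -0.0124 in Astro-like, and GRM8 was -0.0416 in InN-like. GRM5 was 0.0018 in InN-like with marked doublets removed and -0.0215 in all nuclei with upper-quartile scaling. Without the GPNMB cluster, GRM5 and GRM7 in Micro-like were -0.0292 and -0.68.

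With 1 library left out, all nuclei gave GRM5 -0.0207 to 0.13 and GRM3 -0.50 to 0.26. Gran-like nuclei gave GRM8 -0.52 to 1.31 and GRM3 -0.48 to 0.25. InN-like nuclei gave GRM5 -0.0308 to 0.064, GRM7 -0.23 to 0.0446, GRM8 -0.11 to 0.65, GRM3 -0.40 to 0.0375 and GRM4 -0.52 to 0.0027. Micro-like nuclei gave GRM7 -0.016 to 0.87, and OPC-like nuclei GRM8 -0.45 to 0.19. Oligo-like nuclei gave GRM7 -0.11 to 0.36, GRM8 -0.10 to 1.14 and GRM3 -0.55 to 0.0097. Pyra-like nuclei gave GRM7 -0.0774 to 0.0502 and GRM3 -0.30 to 0.44. Mural- or fibroblast-like nuclei fell under 10 nuclei in a library with marked doublets removed and gave no value.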
